A study of Homo sapiens with 6 samples.

Results

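The human HOX genes were examined in pLUM (pure luminal) and pLB (pure luminobasal) cells. They were taken as all array probes whose gene name was HOX followed by a cluster letter from A to D and a number, without regard to signal. This rule gave 44 of 34127 probes, and 39 of the 25940 genes named on the array. Both lines derive from T47Dco, a subline of the luminal breast cancer line T47D that was grown as xenografts in ovariectomized mice. pLUM came from a tumor of an estradiol (E) treated mouse and was kept as CLD3+ CD49f- cells, and was given 1 nM E for 72 h before RNA was prepared. pLB came from a tumor under E plus progesterone and was kept as CD49f+ CLD3- cells without estradiol (EWD). RNA from 3 separate sorts of each line was hybridized to 1-colour Agilent arrays. Each line is a single derived population, and the spread between arrays is that between sorts. Because line, tumor of origin and hormone coincide, their parts in any difference cannot be told apart. Which fraction of a CK5 sort was hybridized was not stated.

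HOX genes encode homeodomain transcription factors that give cells their position along the body axis. They lie in 4 clusters, HOXA on chromosome 7, HOXB on chromosome 17, HOXC on chromosome 12 and HOXD on chromosome 2, and genes of a cluster are ordered from anterior (paralog group 1) to posterior (group 13). HOX proteins bind DNA together with PBX and MEIS cofactors, and in development their genes are opened by retinoic acid and Trithorax proteins and silenced by Polycomb proteins. In the breast several of them take part in gland formation and are altered in cancer.

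The number of probes called well above background by the scanner software was 21280 to 22772 per array, of which 19 to 22 were HOX probes. Signals are given as log2 relative to the 75th percentile of the array, so that a value of 0 equals that percentile, and levels of different probes were not compared. The marker genes followed the labels of the lines. Of 9 luminal markers, 8 were lower in pLB, and all 9 basal markers were higher, beside 23.0% lower and 22.7% higher among all genes tested. These lists are no independent check of the labels. The lines were sorted on the products of CLDN3 and ITGA6, which are list members. Others, such as ESR1, PGR, KRT5 and EGFR, are given in the paper as markers of the same lines. The summed linear signal of the luminal list was 397 to 432 times the 75th percentile in pLUM and 102 to 109 in pLB, and that of the basal list was 1.08 to 1.32 and 92.3 to 129. Of 8 fibroblast markers, COL3A1, DCN, LUM, PDGFRA and PDGFRB were well above background on no array, whereas COL1A2 and THY1 were higher in pLB, and the summed signal of the list was 0.784 to 0.977 in pLUM and 1.27 to 1.81 in pLB. Of 5 endothelial markers, 3 were on no array and VWF was higher in pLB, with sums of 0.0778 to 0.114 and 0.0987 to 0.215. Among 5 leukocyte markers limma called none in either direction, although 1 was higher and 1 lower at an unadjusted p under 0.05, and the sums were 0.439 to 0.573 in pLUM and 0.341 to 0.458 in pLB. The part of other cells in the HOX signals was not tested.

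HOX genes were detected in a patchwork that differed between clusters. Of the 39 genes, 17 were well above background on all 6 arrays. HOXA2 and HOXD10 reached this level on the 3 pLB arrays alone, and HOXB4 and HOXC11 on the 3 pLUM arrays alone. A further 5 genes were detected on some arrays, namely HOXA4 on pLUM replicate 2, HOXA11 on 2 pLB arrays, HOXB1 on pLUM replicate 3, HOXD3 on pLUM replicate 2 and HOXD4 on pLB replicate 2. On no array was any probe of the other 13 genes well above background, among them HOXA13, HOXB5, HOXB7, HOXB8, HOXB13, HOXC12, HOXD1, HOXD8, HOXD9, HOXD11, HOXD12 and HOXD13. HOXC was therefore the most widely detected cluster, with 7 of 9 genes on all arrays, whereas HOXD had none of 9. HOXA had 6 of 11 and HOXB 4 of 10. Most genes had a single probe, and a probe at background need not mean that the transcript was absent. HOXA9 and HOXA10 each had a probe well above background on all arrays and another on none.

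**Figure D1:**
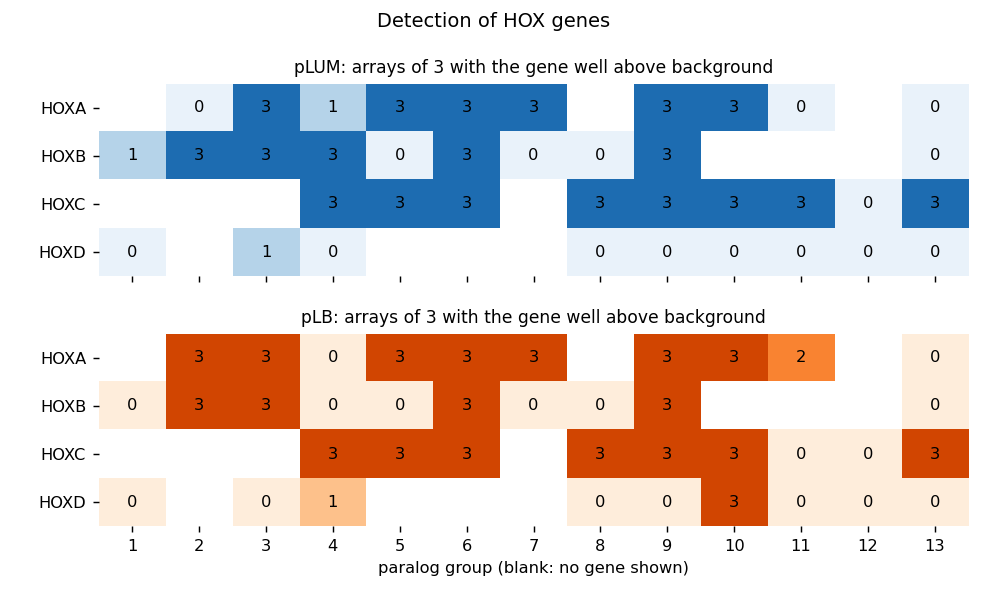
Number of arrays, of 3 in each line, on which any probe of a HOX gene was well above background, for the genes shown, by cluster (rows) and paralog group (columns), with pLUM above and pLB below. HOXC is filled across most groups in both lines, and HOXD10 is the single HOXD gene with 3 arrays in a line.

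Of the single-array detections, those of HOXB1, HOXD3 and HOXD4 stood far from the other arrays of their line. HOXB1, which acts in the hindbrain, was at -3.28 in pLUM replicate 3 and between -7.92 and -6.25 on the other arrays. A HOXD3 probe was at -4.18 in pLUM replicate 2 and between -7.98 and -7.01 elsewhere, and the HOXD4 probe was at -3.34 in pLB replicate 2 and between -7.68 and -6.94 elsewhere. HOXA4, in contrast, was at -5.12 in pLUM replicate 2, close to -5.27 and -5.57 on the other pLUM arrays. These genes were not tested, and neither were the others that reached fewer than 3 of the 6 arrays. HOXA11, a gene of limb and uterus development, was at -4.29, -4.98 and -4.81 in pLB replicates 1, 2 and 3 and between -7.45 and -6.21 in pLUM, and was well above background on too few arrays for the test.

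For the 21 genes with a probe well above background on at least 3 of the 6 arrays, the lines were compared with limma across all 23103 probes that passed this filter. A gene was called when it differed 2-fold with a Benjamini-Hochberg adjusted p under 0.05. In pLB 8 HOX genes were higher, 6 were lower and 7 were not called. Among all 17668 genes tested, 22.7% were higher and 23.0% were lower in pLB, and calls in either direction made up 66.7% of the HOX genes tested and 45.8% of all genes. HOXA2, HOXB4, HOXC11 and HOXD10 entered the test through a single line and had to differ. Of the 17 genes on all 6 arrays, 6 were higher and 4 lower, beside 3039 higher and 3024 lower of all 14722 genes under that filter. For 18 of the 21 genes (85.7%) every array of a line was above every array of the other, and the background for this was 69.1% of all genes tested. Exceptions were HOXA9, HOXA10 and HOXB3. The 18 include HOXA2, HOXB4, HOXC11 and HOXD10, whose separation was largely set by how they entered the test. No background was computed for the genes on all 6 arrays. By cluster, HOXA had 4 genes higher and none lower (also none at an unadjusted limma p under 0.05 or by the methods' t-test), HOXC had 1 higher and 4 lower, and HOXB had 2 of each. The median log2 difference between pLB and pLUM was 1.15 for 7 HOXA genes, 0.19 for 5 HOXB genes and -1.22 for 8 HOXC genes, beside 0.04 for all genes tested; the difference between clusters itself was not tested. By position, of 4 tested anterior genes (groups 1 to 3), 2 were higher and 1 lower, of 9 central genes (groups 4 to 8), 3 were higher and 4 lower, and of 8 posterior genes (groups 9 to 13), 3 were higher and 1 lower. The median log2 differences by position were 1.69, -0.85 and -0.54, and the difference between positions was not tested either.

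**Figure D2:**
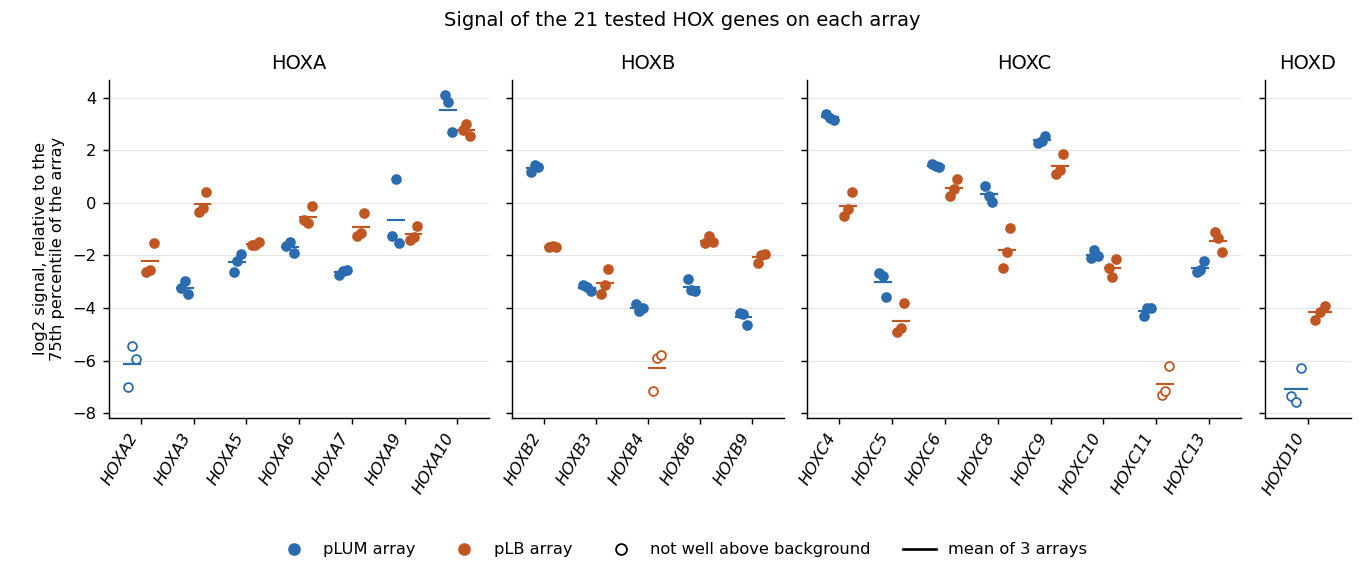
Signal of each tested HOX gene on each array, as log2 relative to the 75th percentile of the array (y axis), in panels by cluster; points are arrays, bars the mean of 3 arrays, and open points were not well above background. The orange pLB points lie above the blue pLUM points for HOXA2, HOXA3, HOXA6 and HOXA7 and below them for 7 of the 8 HOXC genes.

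The HOXA genes called higher in pLB, namely HOXA2, HOXA3, HOXA6 and HOXA7, were anterior or central. HOXA3, a factor of pharyngeal and neck development, was at -3.25, -2.96 and -3.45 on the pLUM arrays and at -0.35, -0.18 and 0.42 on the pLB arrays. Its probe lies at chr7:27146771-27146830 on the minus strand of hg19. The lines were far apart at this probe, with a log2 difference of 3.19 ± 0.25 (SE, n = 3 arrays per line), or 9.10-fold, and a limma adjusted p of 3.7e-05. HOXA2, which patterns the hindbrain and the second pharyngeal arch, was at -2.62, -2.54 and -1.51 in pLB, and at -7.01, -5.46 and -5.95 in pLUM, where it was not well above background. In pLB HOXA2 was higher by at least 8.91-fold (probe at chr7:27140350-27140409, minus strand; limma adjusted p = 0.00025). For such a bound, the dim line was set on each array to the lowest signal that was well above background there, unless the probe itself was brighter. The means of the lines were then compared. An adjusted p printed beside a bound is from the limma fit without this floor. With the floor the limma adjusted p was 6.3e-05 for HOXA2, 0.0028 for HOXB4, 0.0047 for HOXC11 and 0.00081 for HOXD10. The bounds hold for the processed signal and not under the other background correction given below.

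HOXA7, which is known as a repressor of keratinocyte differentiation, was at -2.72, -2.61 and -2.56 in pLUM and at -1.28, -1.16 and -0.37 in pLB (chr7:27194431-27194490, minus strand). Its log2 difference was 1.70 ± 0.26 (SE), or 3.24-fold (adjusted p = 0.00097). HOXA6 was at -1.63, -1.48 and -1.91 in pLUM and at -0.66, -0.77 and -0.14 in pLB (chr7:27185116-27185175, minus strand), a log2 difference of 1.15 ± 0.23 (adjusted p = 0.0033). In both genes pLB replicate 3 was the highest array, and without it HOXA6 differed by 0.96 and was no longer called. HOXA5, which acts in lung development, was 1.61-fold higher in pLB (log2 0.69 ± 0.21, adjusted p = 0.022) and therefore passed on p but not on size.

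The tested posterior HOXA genes, HOXA9 and HOXA10, were not called. HOXA9 and HOXA10, both of which act in the reproductive tract and in blood cells, each had 2 probes that disagreed in signal. The HOXA9 probe used was at -1.26, 0.89 and -1.53 in pLUM and at -1.41, -1.30 and -0.88 in pLB, so that pLUM replicate 2 stood apart and the groups overlapped (log2 difference -0.56 ± 0.60, adjusted p = 0.44). Without that array the HOXA9 difference was 0.20, so its sign rested on a single array. Its other probe, at -7.86 to -6.83, was well above background on no array. For HOXA10 a 60-base probe whose mapped span is longer than itself, as across an intron (chr7:27211789-27213023, minus strand), was at 4.08, 3.84 and 2.68 in pLUM and at 2.78, 2.99 and 2.54 in pLB, a log2 difference of -0.76 ± 0.37 (adjusted p = 0.11). Without pLUM replicate 3 the HOXA10 difference was -1.19 and was called lower. The second HOXA10 probe, at chr7:27211235-27211294, was at -7.95 to -6.97 and well above background on no array. The antisense transcript HOXA11-AS1 was detected on all arrays and was not called (log2 -0.27, adjusted p = 0.22).

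The sequence before the start of 20 of the 39 genes was held by a RefSeq table for GRCh38.p14, and gave 26 distinct windows of 250 bases. Windows of HOXA2, HOXA3 and HOXA7 are printed as examples from genes higher in pLB. Each reads 5′ to 3′ on the minus strand and ends just before the start. HOXA2 lies at chr7:27102684-27102933, HOXA3 at chr7:27152584-27152833 (the farthest upstream of its 7 starts) and HOXA7 at chr7:27156676-27156925. In HOXA2 the capitals mark TGATNNAT, to which PBX and HOX proteins bind together. In HOXA3 they mark the core promoter element TATAAA near the start, and further upstream the site of the HOX-related CDX factors, written as TTTATG. Both strands were searched, and the matches printed do not overlap.
HOXA2: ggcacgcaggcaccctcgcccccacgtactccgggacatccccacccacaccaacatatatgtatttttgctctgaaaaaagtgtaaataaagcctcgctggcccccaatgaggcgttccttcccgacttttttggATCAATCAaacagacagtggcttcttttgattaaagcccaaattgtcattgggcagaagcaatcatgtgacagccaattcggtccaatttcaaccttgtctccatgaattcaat
HOXA3: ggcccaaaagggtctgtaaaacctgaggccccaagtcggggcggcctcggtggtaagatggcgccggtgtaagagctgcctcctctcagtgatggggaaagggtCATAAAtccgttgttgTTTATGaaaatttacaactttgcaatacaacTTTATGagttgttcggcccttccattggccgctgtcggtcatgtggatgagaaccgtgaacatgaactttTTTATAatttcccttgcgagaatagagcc
HOXA7: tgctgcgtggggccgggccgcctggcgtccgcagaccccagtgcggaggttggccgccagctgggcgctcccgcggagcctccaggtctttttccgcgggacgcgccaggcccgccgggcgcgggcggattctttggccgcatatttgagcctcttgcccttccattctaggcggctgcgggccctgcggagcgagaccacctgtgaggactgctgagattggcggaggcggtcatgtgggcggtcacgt

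Many other genes hold the same letters. TGATNNAT was present in 3 of the 26 HOX windows (HOXA2, HOXB1 and HOXD11) and in 6.49% of 34788 windows of the same length from all genes. TATAAA was in 5 HOX windows and 10.8% of all, and TTTATG in 3 HOX windows and 9.65% of all. The HOXA7 window held none of the motifs but had 28 CG pairs and 70.8% G and C, whereas HOXA2 had 8 and 47.2%. The windows of HOXA6 and HOXD10, also higher in pLB, and the HOXA3 windows not printed held none of the motifs either. The median was 19.5 CG pairs in HOX windows and 11 in all windows. A palindromic estrogen response element, that is GGTCA facing its own reverse complement across 3 bases, was in no HOX window and in 14 of all windows, and a repeat of AGGTCA with a gap of 5 bases, one form of the retinoic acid response element, was in no HOX window and 1 of all windows.

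Of the 5 tested HOXB genes, HOXB2 and HOXB4 were lower and HOXB6 and HOXB9 higher in pLB, and HOXB3 was not called. HOXB2, a hindbrain gene of paralog group 2, was at 1.18, 1.43 and 1.38 in pLUM and at -1.66, -1.62 and -1.70 in pLB (chr17:46620127-46620186, minus strand). It was 7.93-fold lower in pLB (log2 -2.99 ± 0.16, limma adjusted p = 5.7e-06). A second HOXB2 probe (chr17:46620897-46620956) was at -3.65, -3.27 and -3.29 in pLUM, fell to -6.21, -7.04 and -5.67 in pLB, where it was not well above background, and was at least 3.70-fold lower. The 2 probes therefore gave the same direction. HOXB4, which expands blood stem cells when forced, was at -3.85, -4.11 and -3.99 in pLUM and at -7.15, -5.89 and -5.79 in pLB, without a pLB array well above background, and was at least 2.48-fold lower (chr17:46653132-46653191, minus strand; adjusted p = 0.0012). HOXB3, which lies between them, did not pass the test (log2 0.19 ± 0.26, adjusted p = 0.54), and its arrays overlapped.

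HOXB9 and HOXB6 went the other way. HOXB9, which acts in mammary development and has been linked to spread of breast cancer, was at -4.19, -4.22 and -4.63 in pLUM and at -2.28, -2.00 and -1.94 in pLB (chr17:46698615-46698674, minus strand), and was 4.85-fold higher (log2 2.28 ± 0.20, adjusted p = 5.6e-05). HOXB6 was at -2.90, -3.31 and -3.35 in pLUM and at -1.54, -1.27 and -1.49 in pLB (chr17:46673193-46673252, minus strand), and was 3.37-fold higher (log2 1.75 ± 0.19, adjusted p = 0.00018). The spread among pLB arrays was small at both genes. HOXB5, HOXB7, HOXB8 and HOXB13, which include genes next to HOXB6 and HOXB9, were at background on all arrays. The antisense transcript HOXB13-AS1 was detected on all arrays and was not called (log2 0.41, adjusted p = 0.25).

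In the HOXC cluster 7 of 8 tested genes had lower means in pLB, and 4 of these were called. HOXC4 showed the largest fitted decrease of the HOX genes. It was at 3.38, 3.24 and 3.15 in pLUM and at -0.50, -0.23 and 0.41 in pLB (chr12:54449755-54449814, plus strand), a 10.3-fold lower signal (log2 -3.36 ± 0.25, limma adjusted p = 3e-05). HOXC5 was at -2.65, -2.80 and -3.59 in pLUM and at -4.89, -4.74 and -3.81 in pLB (chr12:54428108-54428167, plus strand), and was 2.77-fold lower (log2 -1.47 ± 0.36, adjusted p = 0.0097). Its lowest pLUM array and its highest pLB array were close, at -3.59 and -3.81. By the methods' t-test the adjusted p of HOXC5 was 0.054, and it was not called. HOXC8, a gene of the thoracic region, was at 0.66, 0.26 and 0.05 in pLUM and at -2.49, -1.88 and -0.97 in pLB (chr12:54406311-54406370, plus strand), and was 4.29-fold lower (log2 -2.10 ± 0.38, adjusted p = 0.0024). HOXC11 was at -4.29, -4.01 and -3.98 in pLUM and at -7.32, -7.14 and -6.21 in pLB, where it was not well above background, and was at least 2.29-fold lower (chr12:54369250-54369309, plus strand; adjusted p = 0.00018).

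HOXC4 and HOXC5 share the start that the RefSeq table gives them, so that a single window stands for both. It lies at chr12:54016638-54016887 of GRCh38.p14 on the plus strand, and is printed because the members that share it were both lower in pLB (log2 -3.36 and -1.47). It held none of the motifs and therefore has no capitals.
HOXC4 and HOXC5: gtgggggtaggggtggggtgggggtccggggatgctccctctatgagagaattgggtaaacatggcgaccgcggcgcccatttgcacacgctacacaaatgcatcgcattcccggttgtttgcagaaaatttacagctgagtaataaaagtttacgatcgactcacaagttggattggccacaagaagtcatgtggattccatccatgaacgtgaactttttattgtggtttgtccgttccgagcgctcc

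Between these genes lie others that were not called. HOXC9 was at 2.26, 2.34 and 2.53 in pLUM and at 1.11, 1.26 and 1.84 in pLB, and was 1.97-fold lower (log2 -0.98 ± 0.23, adjusted p = 0.0076), just under the threshold of 2-fold. HOXC6, which is raised in prostate cancer, was 1.80-fold lower (log2 -0.85 ± 0.20, adjusted p = 0.0079), and HOXC10 differed by -0.51 ± 0.22 (adjusted p = 0.077). HOXC9 was called lower without pLUM replicate 1 (log2 -1.03) and without pLB replicate 3 (-1.20), and HOXC6 without pLB replicate 3 (-1.01). At the posterior end HOXC13, which acts in hair and nail keratinocytes, was the exception and was higher in pLB. It was at -2.62, -2.56 and -2.21 in pLUM and at -1.12, -1.35 and -1.85 in pLB (chr12:54340034-54340093, plus strand), a 2.04-fold difference (log2 1.03 ± 0.24, adjusted p = 0.0071) that lay next to the threshold. It was no longer called without pLUM replicate 1 (0.95), pLUM replicate 2 (0.98), pLB replicate 1 (0.86) or pLB replicate 2 (0.98).

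HOTAIR, a long noncoding RNA read from the opposite strand of the HOXC cluster, recruits Polycomb proteins and is known from metastatic breast cancer. It was at -1.99, -1.86 and -1.86 in pLUM and at -5.21, -4.35 and -3.43 in pLB (chr12:54356661-54356720, minus strand), where 2 of 3 arrays were well above background, and was 5.36-fold lower (log2 -2.42 ± 0.41, limma adjusted p = 0.0016). It lies between HOXC11, which was also lower, and HOXC12, which was at background on all arrays.

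HOXD10 was the only HOXD gene tested. This gene, described as a suppressor of breast cancer cell invasion, was at -4.44, -4.13 and -3.92 in pLB and at -7.34, -7.58 and -6.28 in pLUM, where it was not well above background (chr2:176984028-176984087, plus strand). Its signal in pLB was higher by at least 2.32-fold (adjusted p = 3e-04). The intensities behind this were 40.1, 39.6 and 29.6 units in pLB and 2.92, 2.94 and 7.30 in pLUM, so that the gene was dim on every array.

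**Figure D3:**
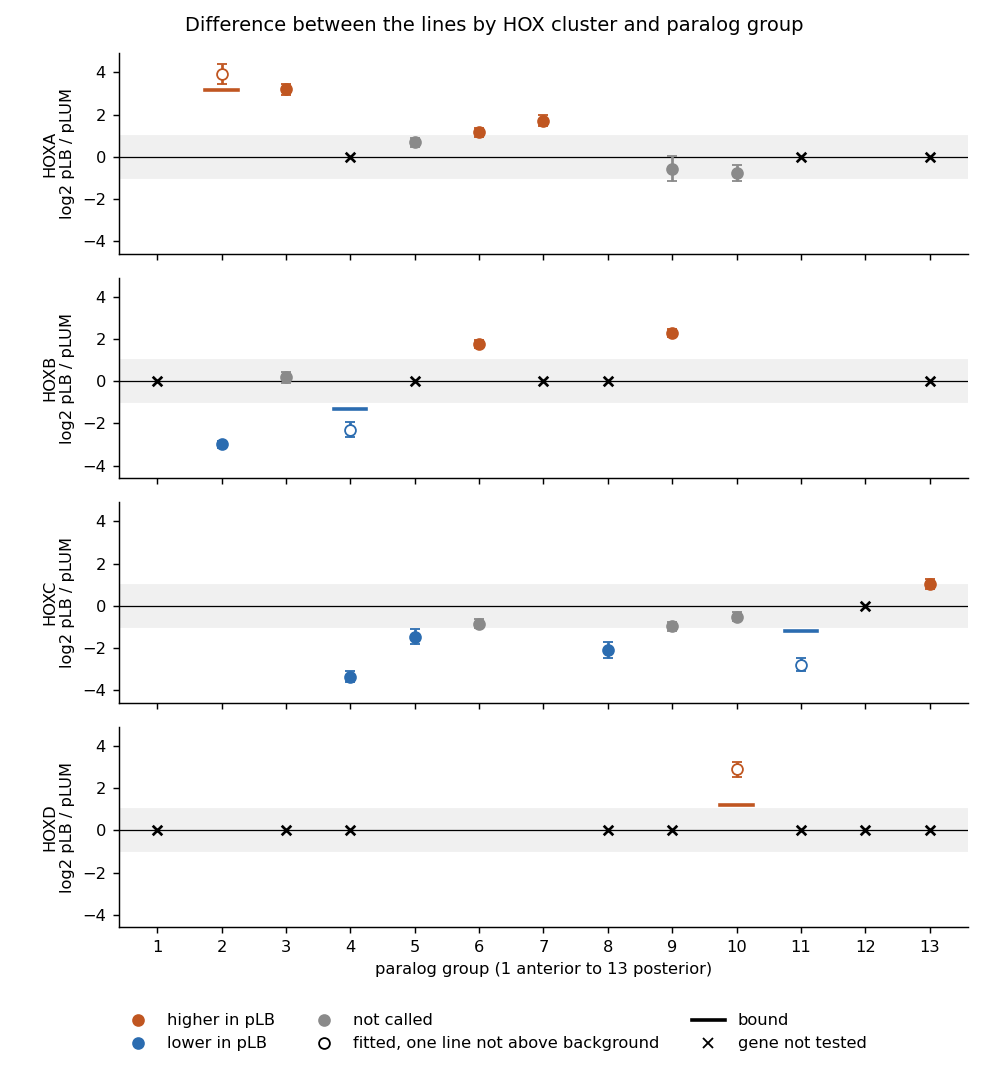
Log2 difference between pLB and pLUM of each tested HOX gene with its SE (n = 3 arrays per line), in a panel per cluster against paralog group; crosses at 0 mark genes shown but not tested, thick bars mark the bound of a gene not well above background in a line, and the grey band is under 2-fold. HOXA2 and HOXA3 are the highest HOXA points, HOXB2 and HOXB4 lie below the band with HOXB3 inside it and HOXB6 and HOXB9 above it, and the tested HOXC genes are below 0 up to group 11 and above it at group 13.

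Fewer HOX genes were called when the background was treated in another way. When local background was removed by normexp with an offset of 50 units, which compresses dim signals, 2 HOX genes were higher (HOXA3 and HOXA7) and 3 lower (HOXB2, HOXC4 and HOXC8). The differences of HOXA2, HOXA6, HOXB6, HOXB9 and HOXC13 then were 0.90, 0.79, 0.91, 0.75 and 0.53, those of HOXB4, HOXC5 and HOXC11 were -0.92, -0.89 and -0.98, and HOXD10 reversed to -0.02. The median of all genes was -0.21 in this setting. This setting changed both the correction and the offset. Normexp without an offset gave 3 genes higher (HOXA3, HOXA7 and HOXB6) and 5 lower, and the offset added to the processed signal gave 5 higher (HOXA2, HOXA3, HOXA7, HOXB6 and HOXB9) and 3 lower. HOXD10 was at 0.65 and 0.40 in these settings and was called in neither. HOXA3, HOXA7, HOXB2, HOXC4 and HOXC8 kept call and direction under every alternative that was run. Scaled on spike-in controls, the median difference of all genes moved from 0.04 to 0.29 and the share of calls that were higher from 49.7% to 59.9%, and the same 14 HOX genes were called in the same directions. The arrays of pLUM and pLB replicate 1 were on one slide and pLB replicates 2 and 3 on another. Within the first slide pLB had 1 array, assumed to vary like the 3 pLUM arrays, and 8 HOX genes were higher and 8 lower there, the added genes being HOXC6 (log2 -1.15) and HOXC9 (-1.27). With slide as a block the estimates are the same ones, since the second slide held pLB alone. Among the pLB arrays replicate 3, which had the lowest 75th percentile, was the highest for 17 of the 21 HOX genes, and for 51.7% of all genes tested.

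**Figure D4:**
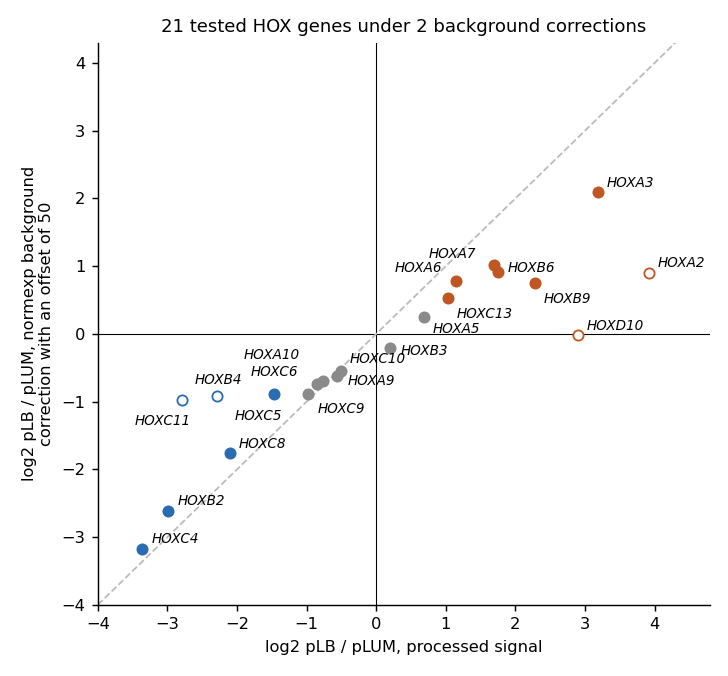
Log2 difference between pLB and pLUM of the 21 tested HOX genes from the processed signal (x axis) and after normexp background correction with an offset of 50 (y axis); open points were not well above background in a line and the dashed line marks equal values. HOXA2, HOXB9 and HOXD10 lie far below the dashed line, whereas HOXC4, HOXB2 and HOXC8 lie close to it.

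HOX cofactors differed in direction. MEIS2, which binds DNA beside HOX proteins, rose from -3.76, -3.38 and -3.70 in pLUM to -0.83, -1.26 and -0.55 in pLB and was 6.66-fold higher (log2 2.74 ± 0.23, limma adjusted p = 5.1e-05). The arrays of the lines did not overlap. MEIS1 was 2.67-fold higher (log2 1.41), which fell below 2-fold with the normexp background correction (log2 0.70). PBX2 (log2 -1.23) and PKNOX1 (-1.04) were lower, and PKNOX2 was at least 2.71-fold lower, with no pLB array well above background. PKNOX2 therefore entered the test through pLUM alone and had to differ. With normexp and the offset PKNOX2 was at -1.184, short of its log2 bound of -1.437. With spike-in controls in place of the 75th percentile, PBX2 (log2 -0.98) and PKNOX1 (log2 -0.79) lost their calls. PBX3 and PBX4 were not called, and MEIS3 was well above background on 1 array and was not tested.

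Genes that regulate HOX clusters were mixed in direction. All 27 Polycomb genes were tested, and 5 were higher in pLB (PHF19, JARID2, PHC2, CBX2 and PCGF1) and 6 lower (PHC3, RBBP7, EZH2, RING1, CBX7 and CBX8), with a median of -0.33. These calls made up 40.7% of the list, beside 45.8% of all genes tested. EZH2, the enzyme that methylates H3K27, was at 3.10, 3.13 and 2.997 in pLUM and at 0.66, 0.84 and 1.00 in pLB, and was 4.74-fold lower (adjusted p = 2.7e-05). CBX8, a reader of that mark, was lower by 2.95 on the log2 scale, and PHC2, a subunit of the same complex, was higher by 1.59. Second probes of PHC2, CBX2 and CBX7 were not called, at -0.002, 0.006 and 0.501, against 1.59, 1.07 and -1.62 for the probes used. Conversely, RBBP4 and PHC1 counted as not called, at -0.38 and -0.332. Another RBBP4 probe was called lower at -2.313, and another PHC1 probe was called higher at 1.241. Of 13 Trithorax and H3K27 demethylase genes, MLL, DPY30 and KDM6B were higher and KDM6A was lower, or 30.8% called beside the same 45.8%. The fitted increases of these 3 genes lay between 1.03 and 1.06, and without pLUM replicate 1 or pLB replicate 3 the count was 1. The 5 MLL probes disagreed, from -1.76 (called lower) to 1.03, and KDM6B was at -0.08 with normexp and the offset. PSIP1 counted as not called, at -0.788, although another of its probes was called higher at 1.318. Of 15 retinoic acid genes, 8 were tested, 4 were higher and none was lower in pLB with limma, a called share of 50%. None was lower at an unadjusted p under 0.05 or by the methods' t-test either. The 4 genes were CRABP1, which carries retinoic acid in the cytoplasm and was 10.01-fold higher, the receptor RARG (4.61-fold), and ALDH1A3 (3.86-fold) and ALDH1A1 (at least 2.00-fold), which make retinoic acid. ALDH1A1 entered the test through pLB alone and had to differ, and was at -0.07 with normexp and the offset. CYP26A1, CYP26B1 and CYP26C1, which degrade it, reached too few arrays for the test.

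Genes next to the clusters were called in shares of 55.6% (HOXA), 60% (HOXB and HOXC) and 33.3% (HOXD), on either side of the 45.8% of all genes tested. Beyond HOXA, 4 of 9 neighbours were higher (NFE2L3, HIBADH, SNX10 and JAZF1) and SKAP2 was lower, and EVX1, a homeobox gene at the end of the cluster, was detected on all arrays and differed by -0.04. Around HOXB, 4 of 10 tested neighbours were higher (NFE2L1, SNF8, CBX1 and ATP5G1), and SKAP1 and CALCOCO2 were lower. Around HOXC, where 4 of 8 tested HOX genes were lower, 4 of 10 neighbours were higher (ATP5G2, COPZ1, ZNF385A and ITGA5), and CALCOCO1 and GPR84 were lower. The median difference of the HOXC neighbours was 0.86, against -1.22 in the cluster. Neighbours of HOXA, HOXB and HOXD had similar medians of 0.71, 0.73 and 0.88. HOXD neighbours included 6 tested genes, of which KIAA1715 and HNRNPA3 were higher, although the 5 HNRNPA3 probes ran from -1.65 to 1.71. HOX-related homeobox genes outside the clusters were mostly not called. Of 15 genes, 7 were tested, GBX2 was at least 2.29-fold higher and MNX1 was 6.06-fold lower (log2 -2.60, limma adjusted p = 8.5e-06). GBX2 entered the test through pLB alone and had to differ. With normexp and the offset it was at 0.065, short of its log2 bound of 1.196. CDX2, CDX4, PDX1, GSX2, MEOX1, MEOX2, GBX1 and EN1 were at background on all arrays.

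**Figure D5:**
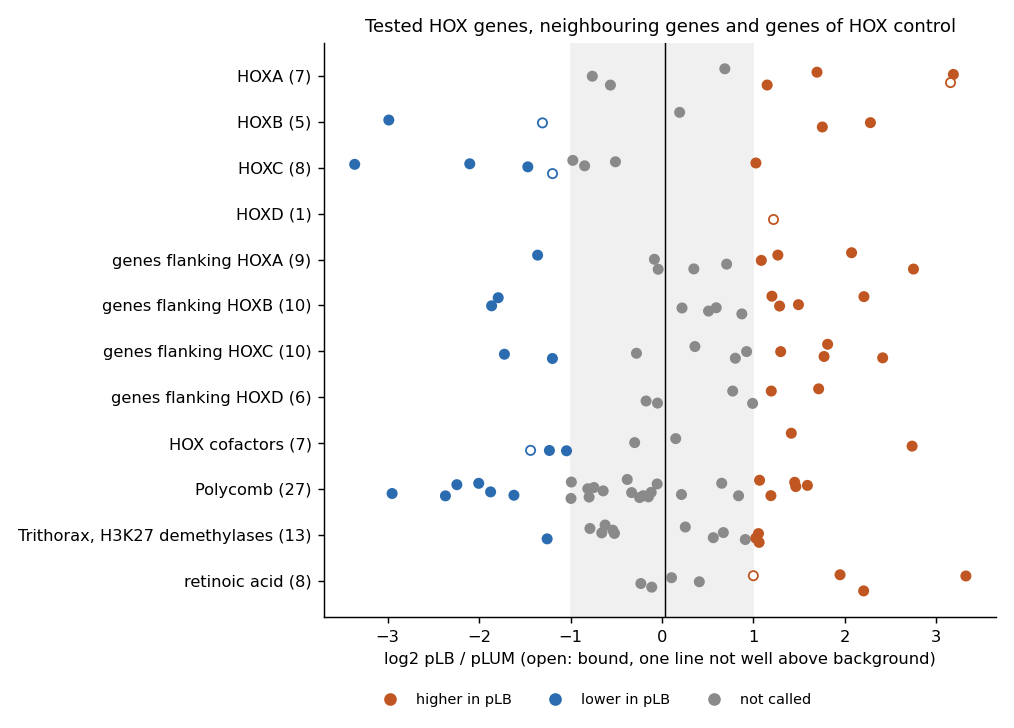
Log2 difference between pLB and pLUM (x axis) of tested genes in the HOX clusters, among the genes that flank them, and among cofactors and regulators, with the number shown in brackets; open points are bounds, the vertical line is the median of all genes and the grey band is under 2-fold. Of the 8 HOXC points 4 lie left of the band, 3 within it and 1 to its right, and of the 10 points of its flanking genes 2 lie left, 4 within and 4 right.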

How the data were processed

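RNA of 3 pLUM and 3 pLB sorts was hybridized to 1-colour Agilent arrays. The authors deposited, per array, the intensity of each spot from Agilent Feature Extraction 10.10.1.1, corrected for background and not normalized between arrays, with probe positions on hg19. The 75th percentile of this intensity was 449.0 to 868.9 per array, and no gene spot was saturated. From the deposited intensities, control spots and 296 to 387 outlier-flagged spots per array were left out, spots of a probe were averaged, and log2 values relative to the 75th percentile were computed. Probes well above background on at least 3 arrays and with at least 2 unflagged values in each line entered the comparison of lines, run in R 4.3.3 by lmFit and eBayes of limma 3.58.1 with Benjamini-Hochberg adjustment over 23103 probes, and a call required 2-fold and an adjusted p under 0.05. A gene was represented by its tested probe with the highest mean. The fit was tested on simulated data. An exact permutation test of 3 against 3 arrays cannot give a two-sided p below 0.1, and 6 arrays limit the precision.

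HOX genes are named at least once, called genes and genes whose probes disagree are given by array, and list members are named where called. The members, lists and tests were chosen with earlier results of these data known. Promoter windows, from RefSeq for GRCh38.p14, were searched on both strands. Alternatives to the background correction, scaling, filter, threshold, test and probe rule were run, as were slide and replicate blocks and fits without each array. Some genes are not reported here.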

Additional observations from a re-analysis of the deposited data

How the results depend on the processing

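With normexp and an offset of 50 units the counts fell to 2 higher and 3 lower in pLB, and HOXD10 reversed, to -0.017 on the log2 scale. Normexp without the offset gave 3 higher and 5 lower, and the offset alone gave 5 higher and 3 lower. The sign of 2 uncalled genes was not stable. HOXA9 was between -1.012 and 0.199 when arrays were left out in turn, and positive without pLUM replicate 2. HOXB3 was between -0.068 (without pLB replicate 3) and 0.403, and was -0.205 with normexp and the offset, -0.187 with normexp alone, and -0.229 with slide as a block and within slide 1. In the other settings the count was 6 to 10 higher and 4 to 8 lower, and leaving out each array in turn gave 7 to 8 higher and 6 to 8 lower. A replicate block gave 8 higher and 6 lower, and changed no HOX call; same-numbered samples did not deviate together (r = -0.27, -0.10 and -0.22 for replicates 1, 2 and 3), so the numbers were not used as pairs. Without the filter on dim probes HOXA11 and HOXD1 were also higher. Spike-in scaling, slide 1 alone, normexp without an offset and the offset alone were chosen after seeing the data. By cluster, normexp with the offset left 2 HOXA and no HOXB, HOXC or HOXD gene higher, and 1 HOXB and 2 HOXC genes lower. Of the gene lists, it left 1 cofactor, 2 retinoic acid genes and 1 HOXA neighbour higher. Without a fold threshold 12 Polycomb genes were lower and 5 Trithorax genes higher. A mean over the probes of a gene left 3 Polycomb genes higher and 1 HOXD neighbour. Genes near background, such as HOXD10, HOXB4 and HOXC11, can be given only as bounds, and these hold for the processed signal alone. With normexp and the offset these 3 genes were at -0.017, -0.92 and -0.979, short of their log2 bounds of 1.213, -1.307 and -1.197.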
